A study of Mus musculus with 2208 samples.

Results

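Genes of major histocompatibility complex (MHC) class I presentation were examined in single microglia of CK-p25 mice, a model of induced neurodegeneration. The members were chosen by symbol from the deposited table: the heavy chain genes H2-D1, H2-K1, H2-T23, H2-M3 and H2-Q7, the light chain gene B2m, the peptide loading genes Tap1, Tap2 and Tapbp, and the transactivator gene Nlrc5. All 10 were among the 23951 genes of the table, and all 10 were among the 9435 genes that passed a filter on low values (in no fewer than 3 mice, 10% or more of the cells had to reach an FPKM of 1).

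MHC class I molecules carry short peptides from inside a cell to its surface, where CD8 T cells and natural killer cells read them. A heavy chain pairs with the light chain, beta-2-microglobulin, in the endoplasmic reticulum, and the Tap1 and Tap2 proteins together pump in peptides that the proteasome has cut. Tapasin, the product of Tapbp, holds the empty heavy chain beside this transporter until a peptide fits. Nlrc5 enters the nucleus and switches class I promoters on through factors bound at a conserved promoter module, and interferons raise the whole pathway in many cell types. Microglia are the resident macrophages of the brain and keep much of this pathway low in healthy tissue.

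Cells carrying the surface proteins CD11b and CD45, which mark microglia and other myeloid cells, had been sorted from the hippocampus into plate wells, and each well was sequenced with a modified Smart-seq2 protocol. CKp25 mice were set against CK control littermates at 0 weeks (before induction of p25) and at 1, 2 and 6 weeks after it. Both genotypes were aged 3 months at 0 weeks, 3 months plus 1 or 2 weeks at the next time points, and 4 months plus 2 weeks at the last. There were 8 groups, with 4 mice in CKp25 at 6 weeks and 3 mice in each other group. By the published description of this line, both genotypes carry a transactivator driven by the CaMKII promoter of forebrain neurons, and CKp25 mice carry in addition a transgene for p25, a shortened form of a protein that activates the kinase Cdk5. The sorted cells are therefore not the cells the transgene is meant for. Cdk5r1, the gene that encodes the source protein of p25, was found in 7.45% to 18.8% of cells of CKp25 mice and 30.4% to 39.6% of cells of CK mice at 2 weeks, so its transcript gave no check of the genotype labels.

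Values were FPKM (fragments scaled to transcript length and to all mapped fragments of a well), which allow levels of different genes to be set side by side. A cell carried a gene when its FPKM was 1 or more. The level of a gene in a mouse is log2(FPKM + 1) averaged over the cells of that mouse, and a difference is CKp25 minus CK on that log2 scale ± its standard error from limma, a linear model fitted to all 25 mice. The scale can understate changes of genes at low values, and it can overstate changes where the share of cells carrying a gene differs. A difference is therefore not the log2 of a ratio of mean FPKM. With the mean FPKM of a mouse taken before the log2, H2-D1 differed at 2 weeks by 2.91 in place of 4.95. Nlrc5 then differed by 2.63 in place of 1.21. A gene passed the test at a Benjamini-Hochberg adjusted p below 0.05 over the 9435 genes.

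Of 2208 wells, 2028 with at least 1000 genes were used, 41 to 96 cells per mouse. No well (0) held values identical to those of another. Median genes per cell of a mouse ranged from 1537.5 to 2994. The depth behind a single value is unknown, and the submitters state a median of 251353 mapped reads per cell for 2183 libraries. Gapdh was listed at 0 in 19.4% of the cells used, so a member at 0 is read only as listed at 0. Markers of the labelled cell type were present: Csf1r and Cst3 were found in 100% of cells of every mouse, Cx3cr1 in 98.9% to 100%, and P2ry12 in 90.4% to 100%. Of the 25 wells that come first in the numbering of a mouse, 19 held over 8000 genes, and the sources used here do not say whether these are single cells.

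The promoters of the heavy chains and of B2m are shown first because they hold letters of known response elements. RefSeq promoter windows of build GRCm38.p6, which run from upstream of the annotated start to 50 bases past it, were matched by symbol for 8 of the 10 members, all but Tap2 and Nlrc5. Below are H2-D1 (chr17:35262844-35263143, plus strand), H2-K1 (chr17:34000298-34000597, minus strand), H2-Q7 (chr17:35438905-35439204, plus strand), B2m (chr2:122147437-122147736, plus strand) and, as a member that did not pass the test in any week, Tapbp (chr17:33919228-33919527, plus strand). Capitals mark matches to the searched motifs on either strand.
H2-D1: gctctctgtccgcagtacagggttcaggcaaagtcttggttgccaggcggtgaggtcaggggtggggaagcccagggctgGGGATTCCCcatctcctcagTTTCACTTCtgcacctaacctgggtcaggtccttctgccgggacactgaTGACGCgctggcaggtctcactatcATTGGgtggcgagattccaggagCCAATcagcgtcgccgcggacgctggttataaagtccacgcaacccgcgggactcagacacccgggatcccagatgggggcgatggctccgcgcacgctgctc
H2-K1: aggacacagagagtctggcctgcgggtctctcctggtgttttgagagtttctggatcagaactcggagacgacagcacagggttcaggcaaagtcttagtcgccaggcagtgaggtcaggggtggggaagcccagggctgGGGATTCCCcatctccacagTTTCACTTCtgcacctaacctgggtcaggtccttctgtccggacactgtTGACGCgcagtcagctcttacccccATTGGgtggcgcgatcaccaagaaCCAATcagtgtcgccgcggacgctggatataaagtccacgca
H2-Q7: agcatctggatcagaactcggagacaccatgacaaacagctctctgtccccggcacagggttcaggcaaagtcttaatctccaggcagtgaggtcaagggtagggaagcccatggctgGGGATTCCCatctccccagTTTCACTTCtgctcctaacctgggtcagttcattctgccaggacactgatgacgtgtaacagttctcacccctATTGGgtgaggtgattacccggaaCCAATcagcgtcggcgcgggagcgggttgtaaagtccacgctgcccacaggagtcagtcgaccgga
B2m: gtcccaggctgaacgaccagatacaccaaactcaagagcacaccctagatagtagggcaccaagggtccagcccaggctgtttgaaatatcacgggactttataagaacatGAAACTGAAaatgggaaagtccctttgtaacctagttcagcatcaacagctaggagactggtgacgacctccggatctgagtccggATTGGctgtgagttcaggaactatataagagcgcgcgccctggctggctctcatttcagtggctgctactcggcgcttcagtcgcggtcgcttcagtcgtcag
Tapbp: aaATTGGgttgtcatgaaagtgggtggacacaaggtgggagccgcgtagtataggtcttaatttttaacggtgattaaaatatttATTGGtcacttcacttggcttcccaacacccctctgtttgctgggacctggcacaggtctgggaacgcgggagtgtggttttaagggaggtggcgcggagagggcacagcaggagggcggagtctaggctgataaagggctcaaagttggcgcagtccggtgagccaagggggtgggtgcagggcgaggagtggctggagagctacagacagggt

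H2-D1, H2-K1 and H2-Q7 each held GGGATTCCC, the kappaB site of the class I enhancer A, which 0.370% of 27025 promoters in the table hold. In each it was followed downstream by a match to GAANNGAAA, a core of the interferon-stimulated response element, printed in these windows as its reverse complement. The bases between them numbered 11 in H2-D1, 11 in H2-K1 and 10 in H2-Q7. H2-M3 also held GAANNGAAA, and 7.56% of all promoters do. This core was added after the promoters were seen; the core searched first, GAAANNGAA, was found in B2m and H2-T23 and in 8.57% of all promoters. TGACGC, the site alpha of the module through which Nlrc5 acts, stood in H2-D1, H2-K1 and H2-M3 and in 7.50% of all promoters. TTCNNNGAA, the gamma-activated site, stood in H2-M3 and in 8.47% of all promoters. CCAAT, the Y box, stood in all 8 windows and in 37.9% of all promoters. The Y box was the only searched motif matched in Tapbp. The same was true of Tap1, which is not printed above and which, unlike Tapbp, passed the test. Whether matches go with the calls was not tested. Matched positions did not overlap one another. A match describes letters and not binding, and the data do not test it.

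None of the 10 genes passed the test before induction or at 1 week, and at 2 and 6 weeks 8 of the 10 were higher in CKp25 mice. The 8 were the 5 heavy chains, B2m, Tap1 and Nlrc5, and none was lower. Nlrc5 passed the filter on low values only through 8 CKp25 mice and 0 CK mice, so it was bound to differ between those groups and is given as a description. The count over the other 9 members was 7 in both weeks. At 0 weeks 0 members passed in limma (0 at an unadjusted p under 0.05), as did 0.0% of the 9435 genes, and differences ran from −0.33 for Tap1 to 0.21 for B2m. At 1 week 0 members passed in limma (2 at an unadjusted p under 0.05), against 4.29% of genes in either direction. At 2 weeks the 8 higher members (limma) stand beside 6.14% of all genes higher, and the median difference was 2.46 over the members and −0.00 over all genes. At 6 weeks the 8 higher members stand beside 4.21% of genes higher, with a median of 2.44 over the members and −0.04 over all genes. With the mean FPKM of a mouse taken before the log2, the differences of 4 heavy chains were smaller at 2 weeks, at 2.91 for H2-D1, 2.84 for H2-K1, 1.42 for H2-T23 and 1.38 for H2-M3, and the median over all genes was −0.35. Every CKp25 mouse lay above every CK mouse in 9 members at 2 weeks (12.9% of all genes) and in 8 members at 6 weeks (6.22% of all genes).

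**Figure D1:**
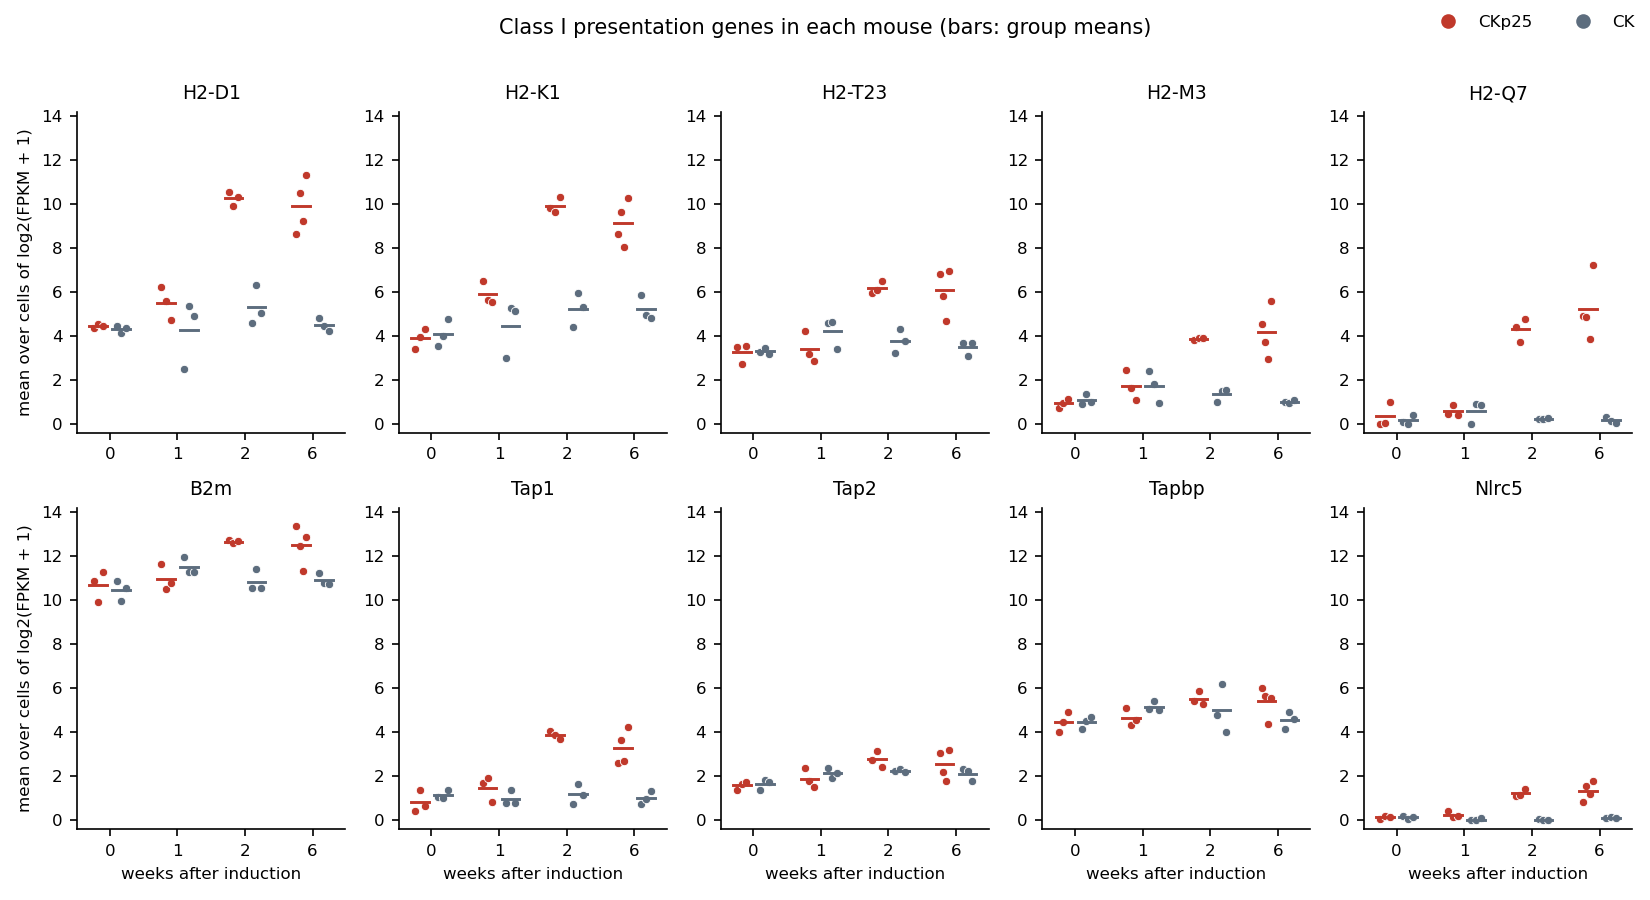
Level of each gene (y axis, mean over cells of log2(FPKM + 1)) in each mouse (points) by weeks after induction (x axis), with CKp25 in red left of CK in gray and bars for group means. At 2 weeks the CKp25 points of H2-D1 sit between 9.93 and 10.53 and those of CK between 4.61 and 6.29, while the points of Tapbp overlap.

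H2-D1 and H2-K1 encode the classical heavy chains, which present peptides to CD8 T cells. The level of H2-D1 at 2 weeks was 10.53, 9.93 and 10.33 in the 3 CKp25 mice, against 4.61, 6.29 and 5.04 in the 3 CK mice. The level at 6 weeks was 8.63, 10.52, 9.20 and 11.31 in CKp25 mice, against 4.82, 4.43 and 4.23 in CK mice. The groups did not overlap in either week, and the CKp25 mice lay closer together at 2 weeks than at 6 weeks. The difference was 4.95 ± 0.60 at 2 weeks (limma adjusted p = 5.91e-08) and 5.42 ± 0.56 at 6 weeks (limma adjusted p = 2.37e-09). Among differences of the 9435 genes ordered from the highest, H2-D1 stood at place 8 at 2 weeks and place 5 at 6 weeks.

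The level of H2-K1 at 2 weeks was 9.83, 9.62 and 10.31 in CKp25 mice, against 4.42, 5.95 and 5.33 in CK mice. In the 6-week mice it was 8.65, 9.65, 8.04 and 10.28 in CKp25 mice, against 5.87, 4.95 and 4.80 in CK mice. Again no CKp25 mouse overlapped a CK mouse. The difference was 4.69 ± 0.57 at 2 weeks and 3.95 ± 0.53 at 6 weeks, and both passed (limma adjusted p = 6.09e-08 and 8.57e-07). In FPKM, H2-D1 averaged 1574 ± 253 in CKp25 mice and 209 ± 43.1 in CK mice at 2 weeks (SD, n = 3 each), a ratio of 7.54. H2-K1 averaged 1316 ± 228 FPKM in CKp25 mice and 184 ± 40.3 FPKM in CK mice, a ratio of 7.16. Class I heavy chains are near copies of each other, and reads can be split among them. Of the 50-base windows of their transcripts, 13.9% in H2-D1, 6.87% in H2-K1, 28.8% in H2-T23, 34.9% in H2-Q7 and 0.576% in H2-M3 also occur in another gene. With the FPKM of 13 classical and Q-region chains summed before the fit, the difference was 3.83 ± 0.53 at 2 weeks (limma adjusted p = 8.57e-07) and 3.84 ± 0.50 at 6 weeks (limma adjusted p = 3.09e-07).

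H2-T23, H2-M3 and H2-Q7 encode non-classical heavy chains. H2-T23 encodes Qa-1, which presents leader peptides of other class I chains to receptors of natural killer cells. Its level at 2 weeks was 5.97, 6.10 and 6.49 in CKp25 mice, against 3.24, 4.31 and 3.79 in CK mice. At 6 weeks it was 6.83, 5.84, 4.68 and 6.95 in CKp25 mice, against 3.68, 3.11 and 3.70 in CK mice. The groups were apart in both weeks, with CKp25 mouse 3 nearest to CK at 6 weeks. The difference was 2.41 ± 0.51 at 2 weeks (limma adjusted p = 0.000958) and 2.58 ± 0.47 at 6 weeks (limma adjusted p = 0.000172). With all wells kept it no longer passed (1.82 at 2 weeks and 1.93 at 6 weeks, limma adjusted p = 0.0761 and 0.0535).

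H2-M3 encodes a chain that presents peptides beginning with N-formylmethionine. Its level was 3.81, 3.89 and 3.91 in CKp25 mice at 2 weeks, against 1.00, 1.52 and 1.55 in CK mice. The level at 6 weeks was 4.54, 3.71, 2.97 and 5.58 in CKp25 mice, against 0.99, 0.96 and 1.10 in CK mice. No mice overlapped, and the difference was 2.52 ± 0.42 at 2 weeks and 3.18 ± 0.40 at 6 weeks, past the limma threshold in both weeks. With log2 of the mean FPKM it was 1.38 at 2 weeks and no longer passed (limma adjusted p = 0.0920).

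H2-Q7 encodes a chain of the Qa-2 family, which can be anchored to the membrane by a lipid. It was found in few cells of CK mice at 2 and 6 weeks. Its level at 2 weeks was 4.41, 3.71 and 4.77 in CKp25 mice, against 0.24, 0.22 and 0.26 in CK mice. In the 6-week mice it was 4.91, 4.88, 3.84 and 7.24 in CKp25 mice, against 0.34, 0.15 and 0.02 in CK mice. The CK mice sat near the floor of the scale in both weeks. The difference was 4.06 ± 0.49 at 2 weeks and 5.05 ± 0.46 at 6 weeks (limma adjusted p = 6.03e-07 and 5.32e-09), but 34.9% of its transcript windows are shared with other chains and its own level is uncertain. Its order among the 10 genes by mean FPKM was 5 in CKp25 and 9 in CK mice at 2 weeks, and 4 in CKp25 and 9 in CK mice at 6 weeks.

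B2m, the light chain that every class I heavy chain needs, was the most abundant of the 10 genes in all 8 groups. Its level at 2 weeks was 12.73, 12.60 and 12.67 in CKp25 mice, against 10.57, 11.41 and 10.54 in CK mice. At 6 weeks it was 13.39, 12.46, 11.35 and 12.87 in CKp25 mice, against 11.23, 10.80 and 10.75 in CK mice. The groups did not overlap, although CKp25 mouse 3 at 6 weeks was near the highest CK mouse. The difference was 1.82 ± 0.50 at 2 weeks (limma adjusted p = 0.0130) and 1.59 ± 0.46 at 6 weeks (limma adjusted p = 0.0280). At 2 weeks it no longer passed without CK mouse 1 (1.69, limma adjusted p = 0.0792) or without CK mouse 3 (1.68, limma adjusted p = 0.0501). At 6 weeks it no longer passed without CKp25 mouse 1, 2 or 4, or without CK mouse 2 or 3, with limma adjusted p from 0.0561 to 0.126 and differences from 1.30 to 1.61. It also no longer passed with all wells kept, at 2 weeks (1.93, limma adjusted p = 0.222) or at 6 weeks (1.20, limma adjusted p = 0.513). At 6 weeks the same held with no filter on low genes (limma adjusted p = 0.0811), with only the groups compared in the fit (0.153) and with the replicate number as a block (0.0726), so the call at 6 weeks depends on these choices.

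The balance of the light chain and the classical heavy chains was read from FPKM. The FPKM of B2m divided by the summed FPKM of H2-D1 and H2-K1 was 2.53, 3.12 and 2.28 in CKp25 mice at 2 weeks, against 5.72, 6.52 and 4.82 in CK mice. At 6 weeks the ratio was 7.20, 2.30, 2.24 and 1.91 in CKp25 mice, against 7.36, 7.66 and 9.40 in CK mice. The ratio was lower in every CKp25 mouse than in every CK mouse at 2 and 6 weeks, but CKp25 mouse 1 at 6 weeks lay close to CK. The same held at 1 week, when no member passed the test. It was then 5.95, 5.74 and 5.22 in CKp25 mice, against 25.3, 9.41 and 10.3 in CK mice. The groups overlapped at 0 weeks, at 4.49 to 11.7 in CKp25 and 5.12 to 6.72 in CK mice. The ratio describes these mice and was given no test.

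Tap1 and Tap2 encode the 2 subunits of the peptide transporter, and Tap1 passed the test while Tap2 did not. The level of Tap1 at 2 weeks was 4.04, 3.86 and 3.68 in CKp25 mice, against 0.75, 1.66 and 1.13 in CK mice. In the 6-week mice it was 2.60, 3.65, 2.71 and 4.25 in CKp25 mice, against 0.72, 0.95 and 1.34 in CK mice. The groups did not overlap. The difference was 2.69 ± 0.36 at 2 weeks and 2.29 ± 0.34 at 6 weeks (limma adjusted p = 5.66e-07 and 4.85e-06).

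The level of Tap2 at 2 weeks was 2.76, 3.16 and 2.44 in CKp25 mice, against 2.23, 2.32 and 2.204 in CK mice. At 6 weeks it was 3.08, 2.22, 1.77 and 3.21 in CKp25 mice, against 2.33, 2.25 and 1.79 in CK mice. Every CKp25 mouse lay above CK at 2 weeks and the groups overlapped at 6 weeks, and the difference of 0.53 ± 0.35 at 2 weeks and 0.44 ± 0.33 at 6 weeks did not pass (limma adjusted p = 0.429 and 0.574). In FPKM, Tap2 averaged 34.1 ± 3.98 in CKp25 mice and 41.5 ± 3.24 in CK mice at 2 weeks, so the direction depends on the scale: more CKp25 cells carried Tap2, at a lower value per carrying cell. The difference between the responses of Tap1 and Tap2 was not tested.

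Tapbp, the gene of tapasin, had levels of 5.44, 5.86 and 5.27 in CKp25 mice at 2 weeks, against 4.77, 6.18 and 4.02 in CK mice. The CK mice spanned the CKp25 mice, and the difference was 0.53 ± 0.49 at 2 weeks and 0.85 ± 0.46 at 6 weeks (limma adjusted p = 0.610 and 0.385). A change of that size cannot be told from the spread between mice for either Tap2 or Tapbp.

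Nlrc5, the class I transactivator, had the lowest mean FPKM of the 10 genes in all 8 groups. Its level at 2 weeks was 1.12, 1.15 and 1.44 in CKp25 mice, against 0.04, 0.03 and 0.01 in CK mice. The level at 6 weeks was 0.84, 1.55, 1.21 and 1.78 in CKp25 mice, against 0.09, 0.13 and 0.08 in CK mice. CK mice sat near the floor of the scale, and no mice overlapped. The difference was 1.21 ± 0.15 at 2 weeks and 1.24 ± 0.14 at 6 weeks. Since the gene entered the fit only through CKp25 mice, no p is given. Most cells were listed at 0, and the scale understates the difference.

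**Figure D2:**
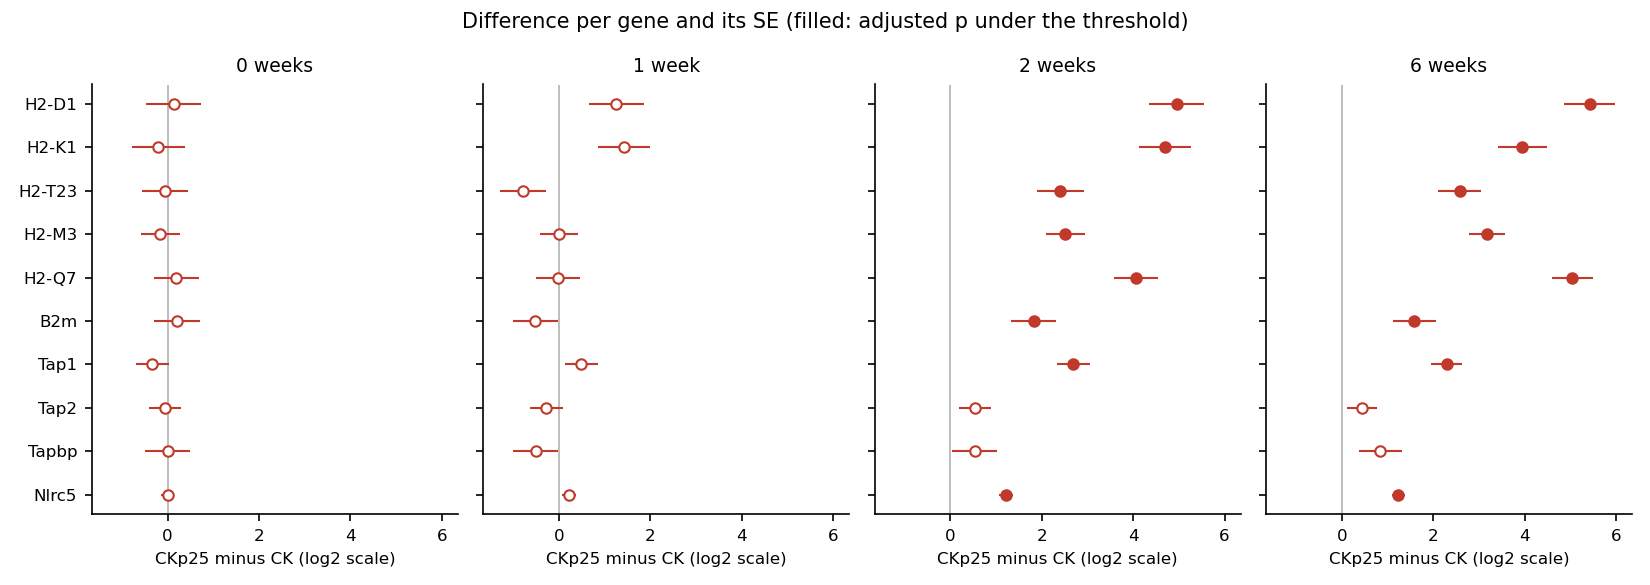
Difference CKp25 minus CK (x axis, log2 scale) of each gene (rows) at 0, 1, 2 and 6 weeks (panels), with bars for the standard error and filled points for genes past the test. No point is filled at 0 or 1 week, and all but Tap2 and Tapbp are filled at 2 and 6 weeks. At 2 weeks the filled points run from 1.21 for Nlrc5 to 4.95 for H2-D1. Nlrc5 entered the fit through CKp25 mice only, so its filled points are a description.

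At 1 week the members did not move together. H2-K1 had levels of 6.50, 5.63 and 5.56 in CKp25 mice, against 3.01, 5.26 and 5.14 in CK mice, and H2-D1 had 6.21, 5.60 and 4.71 in CKp25 mice, against 2.52, 5.37 and 4.89 in CK mice. All CKp25 mice lay above CK in H2-K1, while H2-D1 overlapped. The differences were 1.42 ± 0.57 for H2-K1 and 1.25 ± 0.60 for H2-D1 (limma adjusted p = 0.169 and 0.266), whereas H2-T23 and B2m had differences of −0.79 ± 0.51 and −0.52 ± 0.50. Only H2-K1 and Nlrc5 lay above CK in every CKp25 mouse, 2 of 10 members against 12.7% of all genes. Nlrc5 entered the fit through CKp25 mice only, so it is a description here. CK mouse 1 stood apart: it had the lowest H2-D1 and H2-K1 and the highest B2m (11.97) of the CK mice at 1 week, and its H2-Q7 and Nlrc5 were listed at 0 in every cell used. Without it the difference was 0.69 ± 0.60 for H2-K1 and 0.38 ± 0.61 for H2-D1 (limma adjusted p = 0.691 and 0.857).

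The difference between genotypes was therefore compared between successive weeks as an interaction. From 1 week to 2 weeks it grew for 7 of the 10 members, against 1.28% of all genes with a larger difference: H2-Q7 by 4.08 ± 0.69, H2-D1 by 3.70 ± 0.85, H2-K1 by 3.27 ± 0.81, H2-T23 by 3.20 ± 0.71, H2-M3 by 2.52 ± 0.60, Tap1 by 2.197 ± 0.52 and Nlrc5 by 1.00 ± 0.21. For those other than Nlrc5, limma adjusted p ran from 0.00051 to 0.0173. B2m gained 2.34 ± 0.70, just short of the threshold (limma adjusted p = 0.0861). From 0 weeks to 1 week 0 members passed, against 1.13% of genes, and from 2 weeks to 6 weeks 0 members passed, against 0.0424% of genes. In both of these limma contrasts 0 members had an unadjusted p under 0.05. Nlrc5, which entered the fit through CKp25 mice only, is 1 of the 7. Several of these calls rest on single mice. Without CKp25 mouse 3 of 1 week 3 members passed, without CK mouse 2 of 1 week 5, and without CK mouse 1 of 2 weeks 4. H2-K1 was lost without any of 6 mice (limma adjusted p from 0.0621 to 0.0934), H2-M3 without any of 3 (0.0512 to 0.0691), and H2-D1 (0.0507 to 0.0544) and Tap1 (0.0567 to 0.0724) without any of 2.

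CK mice alone did not show a change that passed. Against CK mice at 0 weeks, 0 members passed in limma at 1, 2 or 6 weeks (1, 0 and 0 at an unadjusted p under 0.05), as did 0.0% of all genes at 1 week, 0.0% at 2 weeks and 0.0% at 6 weeks. The largest difference was 1.14 ± 0.57 for H2-K1 at 2 weeks. The comparisons at 1, 2 and 6 weeks share the CK mice of 0 weeks.

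A higher mean can come from more cells carrying a gene or from more of it per carrying cell, and the members differed in this. H2-Q7 was found in 68.1%, 69.8% and 77.9% of cells of CKp25 mice at 2 weeks, against 4.17%, 7.29% and 4.35% of cells of CK mice. Among the cells that carried it, log2(FPKM + 1) averaged 6.45, 5.28 and 5.98 in CKp25 mice, against 5.76, 2.96 and 5.90 in CK mice, so the carrying cells overlapped in level while their number did not. Nlrc5 was found in 34.0%, 35.4% and 36.8% of cells of CKp25 mice, against 2.08%, 1.04% and 0% of cells of CK mice.

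Tap1 was found in 66.0%, 65.6% and 63.2% of CKp25 cells at 2 weeks, against 14.6%, 34.4% and 21.7% of CK cells, and its level among carrying cells was 5.83 to 6.13 in CKp25 mice and 4.83 to 5.19 in CK mice. Tap1 was thus higher both in its share of cells and among the cells that carried it. H2-M3 was found in 54.3%, 59.4% and 58.8% of CKp25 cells, against 15.6%, 22.9% and 22.8% of CK cells, and its level among carrying cells was 6.56 to 7.02 in CKp25 mice and 6.38 to 6.79 in CK mice. H2-M3 was thus found in more cells, at values per carrying cell that overlapped between the genotypes. B2m lay at the other end: it was found in 100% of cells of every mouse at 2 and 6 weeks, so its difference was in the value per cell. H2-D1 and H2-K1 changed in both ways: H2-D1 was found in 100% of cells of each CKp25 mouse at 2 weeks, against 60.4%, 82.3% and 68.5% of CK cells, and carrying cells averaged 9.93 to 10.53 in CKp25 mice and 7.36 to 7.65 in CK mice. Tap2 was found in 48.9%, 61.5% and 44.1% of CKp25 cells, against 35.4%, 37.5% and 37.0% of CK cells, and its level in carrying cells was lower, 5.15 to 5.64 in CKp25 mice and 5.96 to 6.30 in CK mice.

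Over mice, the share of cells was above every CK mouse in every CKp25 mouse for 8 members at 2 weeks (all but B2m and Tapbp), against 16.1% of all genes, and for 7 at 6 weeks (all but B2m, Tap2 and Tapbp), against 6.16% of all genes. Both counts include Nlrc5, which passed the filter on low values through CKp25 mice only. That filter is itself a cut on the share of cells, so Nlrc5 was bound to differ and is a description here. Nlrc5 aside, an exact permutation test, 2-sided, gave p = 0.1 for each of the 8 and p = 0.0571 for each of the 7. These are the smallest p that 3 against 3 and 4 against 3 mice allow. With 40 such comparisons made, no share could pass after adjustment. Shares depend on depth per cell, which is unknown: the mouse median of genes per cell was 2818.5 ± 274 in CKp25 mice and 2582 ± 306 in CK mice at 2 weeks, and 2187 ± 328 and 2113 ± 501 at 6 weeks.

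**Figure D3:**
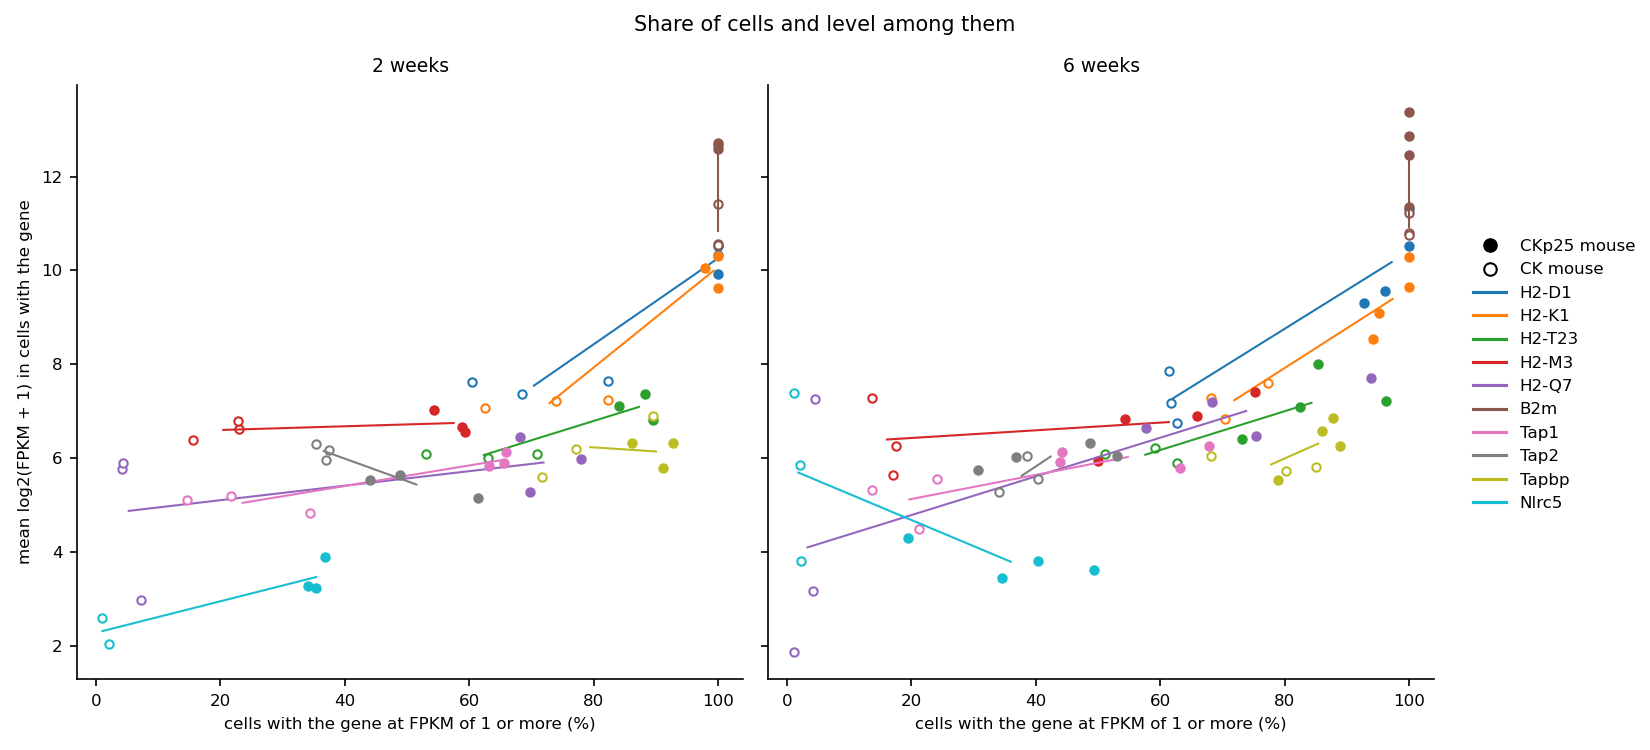
Percentage of cells with each gene (x axis) against the mean log2(FPKM + 1) among those cells (y axis) at 2 and 6 weeks (panels), with filled points for CKp25 mice, open points for CK mice and lines joining the group means. At 2 weeks H2-M3 is displaced along the x axis with overlapping y values, B2m sits at 100% in every mouse, and H2-D1, H2-K1 and Tap1 are displaced along both axes. A mouse with no carrying cell has no point.

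Single cells carried more of the 10 genes at once. The mean number per cell at 2 weeks was 7.39, 7.74 and 7.60 in CKp25 mice, against 4.25, 5.28 and 4.63 in CK mice. The 6-week mean number was 7.07, 7.39, 6.60 and 8.25 in CKp25 mice, against 4.39, 4.51 and 4.54 in CK mice. H2-D1, H2-K1 and B2m were found together in 97.9%, 100% and 100% of CKp25 cells at 2 weeks, against 44.8%, 66.7% and 53.3% of CK cells. The same cells also carried Tap1, Tap2 and Tapbp in 31.9%, 46.9% and 30.9% of CKp25 cells and 1.04%, 10.4% and 7.61% of CK cells. At 1 week the mean number per cell was 5.34, 5.33 and 4.28 in CKp25 mice, against 4.02, 5.17 and 4.61 in CK mice, and the groups overlapped.

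**Figure D4:**
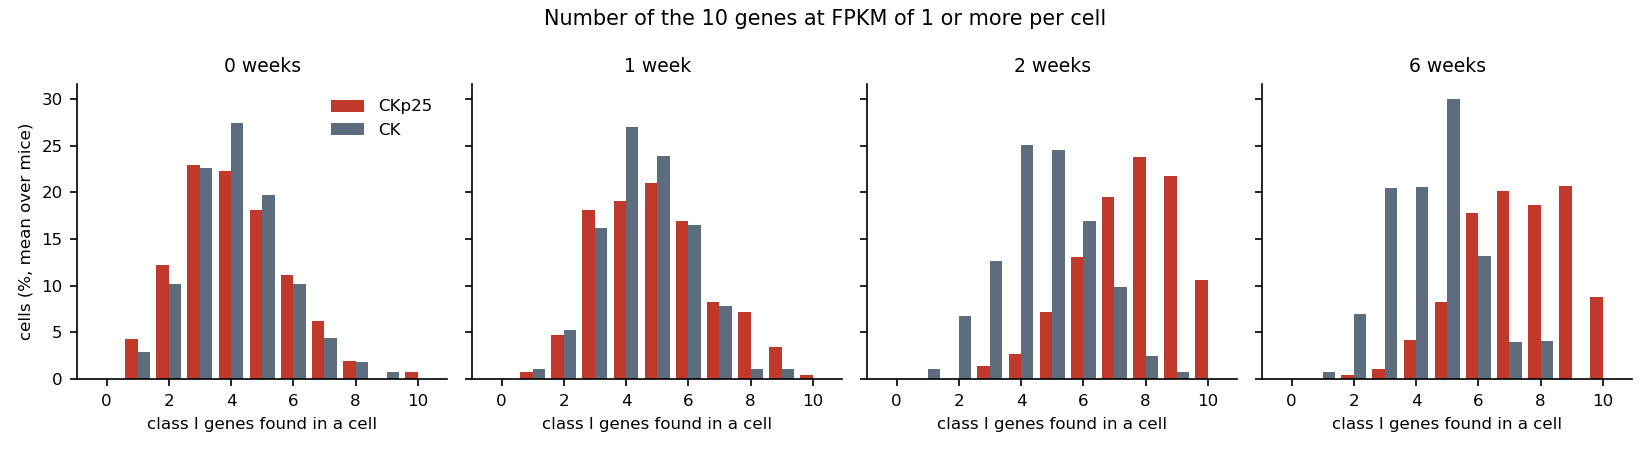
Percentage of cells (y axis, mean over mice) by the number of the 10 genes found in a cell (x axis) at 0, 1, 2 and 6 weeks, with CKp25 in red left of CK in gray. At 2 weeks 10.6% of CKp25 cells and 0% of CK cells held all 10 genes, and the means over mice at 1 week were 4.98 genes per cell in CKp25 and 4.60 in CK mice.

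Within CKp25 mice at 2 and 6 weeks the classical chains also varied together from cell to cell. Pearson's r of H2-D1 with H2-K1 over the cells of a mouse was 0.71 to 0.89 in the 3 CKp25 mice at 2 weeks and 0.02 to 0.34 in the 3 CK mice, with 68 to 96 cells per mouse. At 6 weeks it was 0.40 to 0.76 in the 4 CKp25 mice and 0.17 to 0.33 in the 3 CK mice. The genotypes overlapped before that, at 0.21 to 0.70 in CKp25 and 0.16 to 0.41 in CK mice at 0 weeks. In 1-week mice it was 0.17 to 0.37 in CKp25 and 0.21 to 0.48 in CK mice. H2-D1 with B2m gave 0.52 to 0.71 in CKp25 mice and 0.01 to 0.28 in CK mice at 2 weeks. The points are cells of the same library preparation, values of 0 are many in CK cells, and H2-D1 and H2-K1 share 50-base windows, so these are descriptions.

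The other genes of the pathway were counted by lists, beside 6.14% of all genes higher at 2 weeks and 4.21% at 6 weeks. Of 26 genes listed as other class I chains and class I-like genes, 21 were tested. Of these, 13 were higher and 0 lower in CKp25 mice at 2 weeks (median difference 0.83) and 8 were higher at 6 weeks (median 0.45). The 21 include H2-Ke6, which encodes no class I or class I-like chain and did not pass in either week (−0.06 ± 0.25 at 2 weeks). At 2 weeks H2-Q6 differed by 2.98 ± 0.32, H2-Q5 by 2.91 ± 0.42, H2-T9 by 1.34 ± 0.22 and H2-Q10 by 0.64 ± 0.11. These chains share much sequence with H2-Q7 and with each other. H2-Bl, among the 13, passed the filter on low values only through CKp25 mice, so its call is a description. Whether other listed genes passed the filter in the same way was not examined, so the counts of higher chains are a description. H2-Q10, for example, had a mean level of 0.66 in CKp25 and 0.02 in CK mice at 2 weeks, near the floor of the scale. Of 9 genes of the proteasome that cuts the peptides, 4 were higher at 2 weeks, against 6.14% of all genes, and 3 at 6 weeks, against 4.21% (medians 1.36 and 0.60). They included Psmb8 (1.68 ± 0.48 at 2 weeks) and Psmb9 (1.64 ± 0.37), catalytic subunits of the immunoproteasome, and Psme1 (3.24 ± 0.52), a subunit of the proteasome activator. Psmb5 (1.66 ± 0.54), the constitutive subunit that Psmb8 replaces, was higher at 2 weeks as well.

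Of 14 tested genes of peptide loading and trimming, 0 were higher and 0 lower at 2 and 6 weeks, with medians of 0.17 and −0.03. At 2 weeks Npepps, a cytosolic aminopeptidase, differed by 0.44 ± 0.25, Sppl2a, an intramembrane protease, by 0.51 ± 0.43, Ganab, a glucosidase of glycoprotein folding, by 0.30 ± 0.34 and Sec61a1, of the protein translocation channel, by −0.32 ± 0.42. Among regulators of class I transcription, Stat2 and Irf9, which act in type I interferon signaling, were higher at 2 weeks by 2.28 ± 0.30 and 1.34 ± 0.35. Irf1, an interferon-induced transcription factor, differed by 0.89 ± 0.36 and did not pass (limma adjusted p = 0.129). At 6 weeks Stat2 was higher by 1.32 ± 0.28, and Irf9 differed by 0.96 ± 0.33 and did not pass (limma adjusted p = 0.0755). Among 4 tested genes listed as possible receptors of class I, Lilrb4, an inhibitory receptor, was higher at 2 weeks by 2.31 ± 0.28. Lilrb4 and Pirb, another inhibitory receptor, were higher at 6 weeks. Binding of class I by the products of the 4 genes was not examined. Pilra, Pirb and Lrp1 did not pass at 2 weeks (0.18 ± 0.25, 0.13 ± 0.17 and −0.87 ± 0.47).

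**Figure D5:**
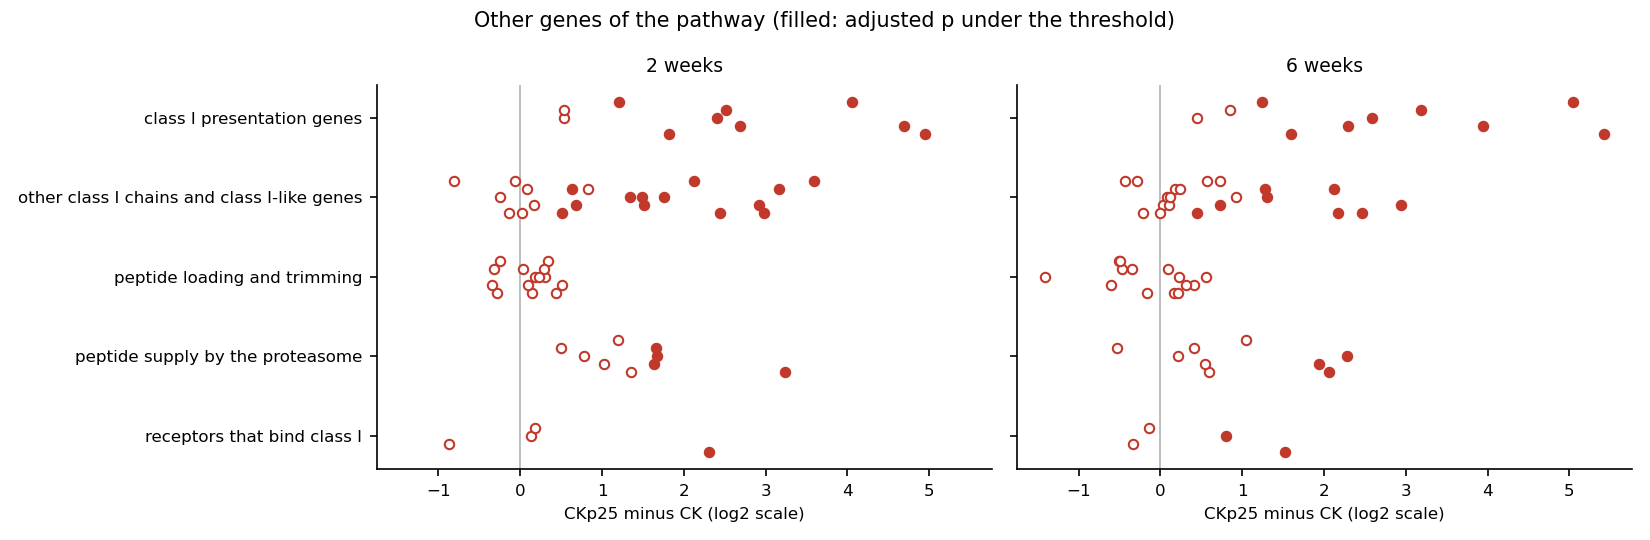
Difference CKp25 minus CK (x axis, log2 scale) at 2 weeks (left) and 6 weeks (right) for each tested gene of the class I presentation genes and of 4 lists of other pathway genes (rows), filled where the gene passed the test. In the loading and trimming list no point is filled in either week, and in the proteasome list 4 points are filled at 2 weeks and 3 at 6 weeks. Calls of Nlrc5 and H2-Bl are a description, since both entered the fit through CKp25 mice only. Whether other listed genes did so was not examined.

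Genes outside the 10 members whose pattern over the 25 mice was most like that of H2-D1, B2m, Tap1 or Nlrc5 were found among 4151 genes whose mean level exceeded 1, by Pearson's r and without a test, since the mice of a group share genotype and week. For H2-D1 these were Lgals3bp (r = 0.97), Oasl2 (0.95) and Axl (0.95), while the member H2-K1 had a higher r of 0.98. For B2m they were Npc2 (0.91), Trim30a (0.90) and Irgm1 (0.90), while the member H2-T23 had a higher r of 0.93. For Tap1 they were Sdc3 (0.96), Lgals3bp (0.96) and Hcar2 (0.95), with the member H2-D1 at 0.96. For Nlrc5 they were H2-Q6 (0.97), H2-Q5 (0.97) and Axl (0.96). With the group means taken out, r of H2-D1 was 0.86 with H2-K1, 0.71 with Tap1 and 0.62 with Nlrc5, but 0.08 with B2m. B2m then went with H2-T23 (0.77) and Npc2 (0.76). Which mice were high within a group thus differed between B2m and H2-D1.

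Markers of cell types were read beside these changes. The summed FPKM of 9 microglia markers was 18575 to 20792 in CKp25 mice and 38496 to 48620 in CK mice at 2 weeks, and 13497 to 27062 in CKp25 mice and 27960 to 44593 in CK mice at 6 weeks. The summed FPKM of 6 monocyte markers was 25.2 to 30.1 in CKp25 mice and 0.308 to 21.0 in CK mice at 2 weeks, and 6.57 to 54.9 in CKp25 mice and 0.781 to 27.4 in CK mice at 6 weeks, with Chil3 and F13a1 in no CKp25 cell at 2 weeks. For 6 border-associated macrophage markers it was 0.129 to 2.45 in CKp25 mice and 0.623 to 145 in CK mice at 2 weeks, and 33.3 to 172 in CKp25 mice and 2.06 to 77.8 in CK mice at 6 weeks. The sum of 5 astrocyte markers was 4.13 to 5.27 in CKp25 mice and 1.16 to 5.03 in CK mice at 2 weeks, and 4.55 to 28.4 in CKp25 mice and 0.471 to 3.43 in CK mice at 6 weeks, where the groups did not overlap. The monocyte sum at 2 weeks was higher in every CKp25 mouse than in every CK mouse. The microglia sum was lower in every CKp25 mouse in both weeks, as was the sum of 5 dendritic cell markers. The dendritic cell sum was 295 to 335 in CKp25 and 599 to 771 in CK mice at 2 weeks. In 6-week mice it was 199 to 295 in CKp25 and 413 to 584 in CK mice. The sum of 4 B cell markers was lower in every CKp25 mouse at 2 weeks (1.29 to 8.45 in CKp25 and 13.04 to 22.8 in CK mice). The sum of 6 endothelial markers was lower in every CKp25 mouse at 6 weeks (2.25 to 5.28 in CKp25 and 5.59 to 6.89 in CK mice). In 74 of the 2028 cells, 3 or more markers of some other type were found. Without them, 8 members were again higher at 2 weeks and 8 at 6 weeks. The part of these marker sums in the results was not tested otherwise. Because each value is relative to all fragments of a cell, less RNA of other genes in a cell and more RNA of a member cannot be told apart.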

How the data were processed

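The deposited table held FPKM per gene and well, which the authors made with Cufflinks 2.2 on genome build mm9, per the submitters' processing notes. The alignment settings, the annotation and the handling of reads shared between genes are not given in the sources used here. FPKM keep no depth, and amplification without molecular identifiers means that fragments are not independent molecules.

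Wells with fewer than 1000 genes at an FPKM of 1 or more were left out (180 of 2208). The mouse was the replicate: log2(FPKM + 1) was averaged over its cells, and genes reaching an FPKM of 1 in 10% or more of cells, in no fewer than 3 mice, were fitted with limma 3.58.1 (R 4.3.3; trend and robust variance, 8 group means, 17 residual degrees of freedom, 2-sided, Benjamini-Hochberg adjustment). The fit was tested on simulated data. Shares of cells were compared by exact permutation tests over mice. Python 3.11.15, numpy 2.4.6, pandas 2.3.3 and scipy 1.17.1 were used. Alternatives changed the pseudocount, the filters on genes and wells, the scaling, the model and the mice.

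Members and gene lists were chosen with earlier results of these data known. All 10 members were named in every comparison. Of each other list, up to 4 genes with the smallest p at 2 weeks were named except 1 regulator that is not reported here, for which the count of that list is left out as well, and for likeness the 3 genes outside the members with the highest r.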

Additional observations from a re-analysis of the deposited data

Results flagged for a closer look

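The difference between CKp25 and CK mice was larger at 2 weeks than at 1 week for 7 members, by the interaction contrast in limma. On the log2 scale the change of the difference was 4.08 for H2-Q7, 3.70 for H2-D1, 3.27 for H2-K1, 3.20 for H2-T23, 2.52 for H2-M3, 2.197 for Tap1 and 1.00 for Nlrc5. Nlrc5 entered the fit through CKp25 mice only, so its value is a description. The mice of 1 week and of 2 weeks are separate animals. The calls of H2-D1, H2-K1, H2-M3 and Tap1 each ended without 1 or another single mouse.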

How the results depend on the processing

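Of 4100 recomputed values of single genes, 4043 kept their side of the threshold, 53 lost a call, 4 gained one and 0 reversed a call. The direction changed in 129 values that were not called. The count of 7 members with a larger difference at 2 weeks than at 1 week was 3 with no filter on low genes, 1 with log2 of the mean FPKM, 3 with the share of cells as the value, 3 with all wells, 4 with limma without trend and robust variance, and 3 to 8 with 1 mouse left out. The count of members in a larger share of cells in every CKp25 mouse was 0 to 1 at 0 weeks with 1 mouse left out. At 1 week it was 2 in wells with at least 2000 genes, 0 with detection at an FPKM of 10 and 1 to 3 with 1 mouse left out. At 2 weeks it was 5 with all wells. Nlrc5, which passed the filter on low values through CKp25 mice only, was among the members examined for these counts. B2m at 6 weeks lost its call with all wells (1.20) and with only the groups compared (1.59). With the replicate number as a block, 8 members were higher at 2 weeks and 7 at 6 weeks, B2m then giving 1.47 (limma adjusted p = 0.0726), and 7 had a larger difference at 2 weeks than at 1 week. The labels do not say what a mouse number marks. Deviations from the group means of same-numbered CKp25 and CK mice had a correlation above 0.1 in 8 of 12 pairs (−0.12 to 0.35, median 0.13), against a median of −0.08 over 24 other pairs, and 8 of 12 CKp25 mice were most like the CK mouse of their own number. Of the same-numbered pairs 11 of 12 had a correlation above 0, against 8 of the 24 other pairs. Since 4 pairs were not above 0.1, the numbers were not used as a pairing in the main fit. That cut is arbitrary, and the numbers may pair some of the mice, which only the block fit above allows for. Log2 of the mean FPKM moved the median of all genes at 2 weeks to −0.35, with 187 genes higher and 173 lower in place of 579 and 211. Depth per cell is unknown, so values listed at 0 limit the low members, Nlrc5 and H2-Q7 in CK mice.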

Other observations

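H2-Bl, a class I gene next to the Q region, was found in 7.53% to 64.7% of cells of 7 mice. It was found in 32.3% and 64.7% of cells of CKp25 mice 2 and 3 at 2 weeks and in 0% of cells of CKp25 mouse 1. The other 5 of those mice were CKp25 mouse 3 (9.30%) and CK mouse 3 (7.95%) at 0 weeks, and CKp25 mouse 2 (12.5%), CK mouse 2 (9.47%) and CK mouse 3 (7.53%) at 1 week. In these 5 mice H2-Q7 was found in 11.4% to 26.7% of cells, and in the other mice of 0 and 1 week in 0% to 8.14%. H2-Q2, another chain of the list, was found in 22.7% to 41.9% and in 0% to 4.65%. CKp25 mouse 1 at 2 weeks, without H2-Bl, had H2-Q7 in 68.1% of cells. It had H2-Q2 in 21.3% of cells, against 69.8% and 91.2% in CKp25 mice 2 and 3. The CKp25 mice of 6 weeks had H2-Bl in 0% to 3.85% of cells and H2-Q7 in 57.7% to 93.8%. The 7 mice were singled out after their values were seen, and the pattern was not tested.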
